A study of Mus musculus with 6 samples.

Results

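The 10 genes Mapk14, Mapk11, Mapk13, Mapkapk2, Mapkapk3, Map2k3, Map2k6, Creb1, Crem and Dusp1 code for the core of the p38 MAPK and CREB pathway, and they were chosen by name from the 54446 genes counted. All 10 were found in the count table, and 9 of them reached 10 counts in at least 1 library. RNA was sequenced from bone marrow-derived macrophages (BMDMs) of male BALB/c mice aged 6 to 8 weeks, which had been grown for 7 days in medium with 20% L929-conditioned medium, a source of the macrophage growth factor CSF-1. M0 cells received no polarizing agent, M1 cells received 20 ng/mL of IFN-γ together with 50 ng/mL of LPS, M2 cells received 20 ng/mL of IL4, and polarization lasted 24 hours. Each state was sequenced once as a control, for which the labels name the vehicle DMSO, and once with regorafenib, a multikinase inhibitor, which by the study's methods was given at 1 µM and 1 hour before polarization. How long the M0 cells were kept with the drug, and whether cells of several mice were pooled, is not given in the sources used here.

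p38 kinases are stress- and cytokine-activated MAP kinases. They are switched on when the MAP kinase kinases MKK3 and MKK6 (Map2k3 and Map2k6) phosphorylate them, they pass the signal to the kinases MK2 and MK3 (Mapkapk2 and Mapkapk3), and the phosphatase DUSP1 switches them off. CREB (Creb1) is a transcription factor that binds cAMP response elements and is activated by phosphorylation, and CREM (Crem) is its close relative, some of whose isoforms repress the same elements. In macrophages stimulated with LPS, this pathway is known for keeping inflammatory mRNAs stable and for inducing its own brake, Dusp1. All values here are RNA levels of the pathway's genes, and none measures phosphorylation.

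With 1 library per condition there is no replicate. Values are counts and CPM, a count relative to the total of its library on a fixed scale, corrected by TMM, a method that equalizes libraries on the bulk of their genes, and folds are log2 ratios with the 95% interval that counting error alone gives. A gene was counted as past 2-fold at an absolute log2 ratio of at least 1 and a count of 10 or more in the higher library. This is a rule of size and not a test. Libraries held 25359309 to 34898342 counts, and a count of 0 allowed a level of up to 0.0822 to 0.124 CPM (3 counts), again for counting error only.

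The libraries carried the markers of their labels. All 8 macrophage markers had at least 10 counts in every library and summed to 21870 to 48730 CPM, and all 5 lymphocyte markers were at or under 3 counts everywhere. Lyz2 gave most of the macrophage sum, at 16710 to 42740 CPM. Other macrophage markers differed in either direction, with Adgre1 at 634.5 and 6120 CPM and Cd68 at 1294 and 347.9 in the M0 and M1 controls. Nos2, the M1 enzyme that makes nitric oxide, had 410649 counts in the M1 control and 221627 in the M1 regorafenib library, against 39 to 50 in the other libraries. Mrc1, the mannose receptor of M2 cells, had 24237 counts in the M2 control and 12895 in the M2 regorafenib library, against 9 to 805 in the other libraries. Other label markers were higher with the drug: Il12b had 10147 and 26829 counts in M1, control first, and Retnla 941 and 3348 and Chil3 379 and 675 in M2. The 8 neutrophil and precursor markers summed to 84.8 to 158 CPM, with Ly6g at 0 in every library. Mpo gave most of this sum and was higher with regorafenib in M0 and M2, at 80.7 and 155 CPM in M0, 83.0 and 85.6 in M1, with 87.0 and 130.3 in M2, control first. S100a8 was at 69.8 and 20.3 CPM in the M1 control and regorafenib libraries against 1.39 to 4.004 elsewhere, and Camp at 4.18 and 3.78 CPM in M1 against at most 0.0303 elsewhere. Both moved with the M1 differences given below and were called higher in M1 than in M0 by edgeR's quasi-likelihood test (adjusted p = 0.00217 and 0.00237). S100a9 did not rise with them, with 3 and 1 counts in M1 against 0 to 11 elsewhere. Elane, Ngp and Ltf had at most 2 counts in any library. The 7 dendritic cell markers summed to 32.1 and 39.0 CPM in the M1 libraries, mostly from Ccr7, and to 0.516 to 2.79 CPM in the others. The 6 fibroblast markers summed to 3.19 to 10.2 CPM and were highest with regorafenib in M0. Dcn of this list and Ccr7 and Xcr1 of the dendritic cell list were also called higher in M1 than in M0 (adjusted p = 0.00848, 0.000275 and 0.00372 by the same test). Col1a1, Col1a2, Col3a1 and Zbtb46 of these lists were not called (adjusted p = 0.847, 0.793, 0.702 and 0.968 by that test). Flt3, Cd209a, Dpp4 and Clec9a had at most 7 counts in any library. Camp, Ccr7, Xcr1 and Dcn had at most 9 counts in each M0 and M2 library. They passed the test's filter on low counts through M1, so their calls add little to the counts. The part of these cell types in the results was not tested. In bulk RNA, fewer cells of a type and less RNA per cell cannot be told apart.

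Dusp1, the phosphatase, was lower with regorafenib in each of the 3 states (values below). Among the 9 members searched, which leave out Crem, its promoter was the only one to hold the full cAMP response element TGACGTCA, the 8-base palindrome that CREB binds. The search covered windows from 250 bases before to 50 bases after annotated starts, taken from RefSeq on GRCm38.p6, with 13 windows for these 9 genes. The full element stood in 1 of these 9 genes and in 1.79% of 32851 promoters of the same length. Its 5-base core, TGACG on either strand (read as TGACG or CGTCA, and contained in the full element), stood in 4 members, Dusp1, Mapk11, Mapkapk2 and Mapkapk3, and in 20.8% of all promoters. Members are counted per gene, over 13 windows, while both percentages are per promoter window, so the units differ. The stretches below are those of the 3 members past 2-fold with regorafenib in M0, all on the minus strand and printed 5′ to 3′, with the element and cores in capitals. The Dusp1 stretch is chr17:26508573-26508672, the Mapk11 stretch is chr15:89149787-89149846 and the Mapkapk3 stretch is chr9:107289908-107289967, and no annotated exon overlapped any of them.
Dusp1: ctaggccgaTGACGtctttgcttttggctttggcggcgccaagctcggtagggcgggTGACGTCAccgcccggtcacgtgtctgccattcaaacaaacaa
Mapk11: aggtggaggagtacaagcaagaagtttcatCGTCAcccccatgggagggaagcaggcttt
Mapkapk3: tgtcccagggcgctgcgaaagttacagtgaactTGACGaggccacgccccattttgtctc
The first base of the Dusp1 element lay at −143 from the start, with a separate core at −191. The core of Mapk11 began at −210, that of Mapkapk3 at −57 from 1 of its 2 annotated starts, and that of Mapkapk2 at 11 after the start. A match of letters is a description and does not show that a factor is bound.

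**Figure D1:**
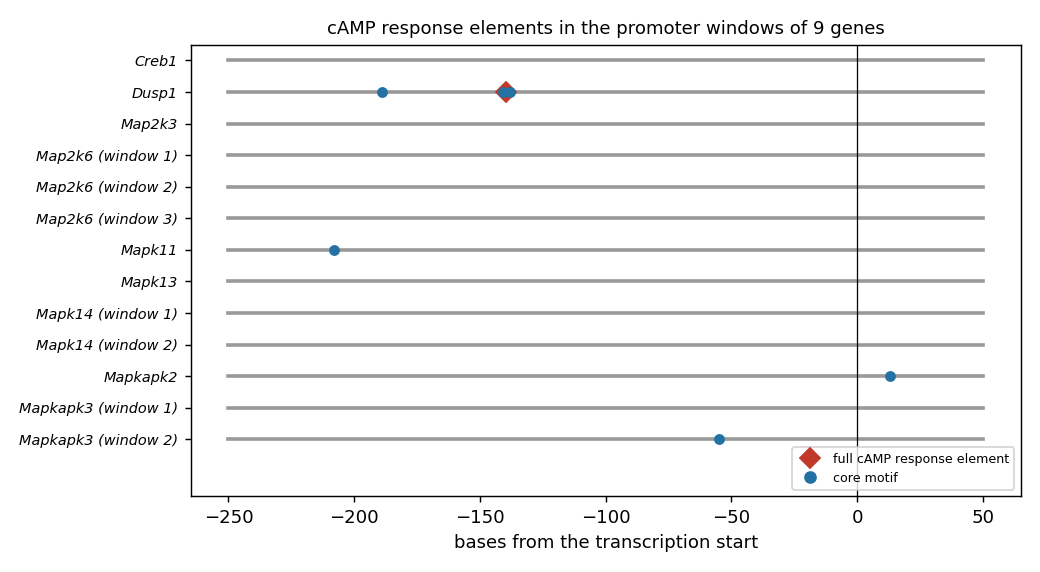
Positions of cAMP response elements in the 13 promoter windows of 9 genes, in bases from the annotated transcription start (x axis), with 1 line per window from 250 bases before to 50 after the start. The red diamond is the full element and blue points are core motifs; only Dusp1 has the full element, at −143, and 4 genes have a core.

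Of the 3 p38 isoforms among the members, Mapk14 (p38α; GRCm38 chr17:28691342-28748405, plus strand) was the most abundant. Its counts were 5294 in the M0 control and 7126 with regorafenib, 3431 and 3675 in M1, with 6017 and 4938 in M2. Once scaled, the regorafenib library was slightly above its control in all 3 states, and both M1 libraries lay below the other 4. The regorafenib-to-control log2 ratio was 0.33 in M0 (interval 0.28 to 0.38), 0.20 in M1 (0.13 to 0.27) and 0.10 in M2 (0.04 to 0.15). From the highest library, M0 with regorafenib, to the lowest, the M1 control, the level differed 1.63-fold.

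Mapk11 (p38β; chr15:89142487-89149628, minus strand) was much scarcer. Per kilobase of the principal transcript it reached 0.488 to 3.02 CPM, against 37.4 to 60.9 for Mapk14. It had 228 counts in the M0 control and 102 with regorafenib, 31 and 33 in M1, with 134 and 50 in M2. The control was above the regorafenib library in M0 and M2, while the M1 pair differed by less than counting error. Its log2 ratio was −1.26 in M0 (−1.61 to −0.92) and −1.04 in M2 (−1.54 to −0.56), against 0.19 in M1 (−0.56 to 0.95). The difference of the ratio between M1 and M0 was 1.45 (0.67 to 2.24), an interval of counting error with no test over replicates. Mapk13 (p38δ; chr17:28769297-28780233, plus strand) had 0, 5, 6, 0, 2 and 0 counts in the libraries in the order M0, M1 and M2, control before regorafenib. It stayed under 10 counts everywhere, at most 0.0791 CPM per kilobase, too few for a ratio.

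**Figure D2:**
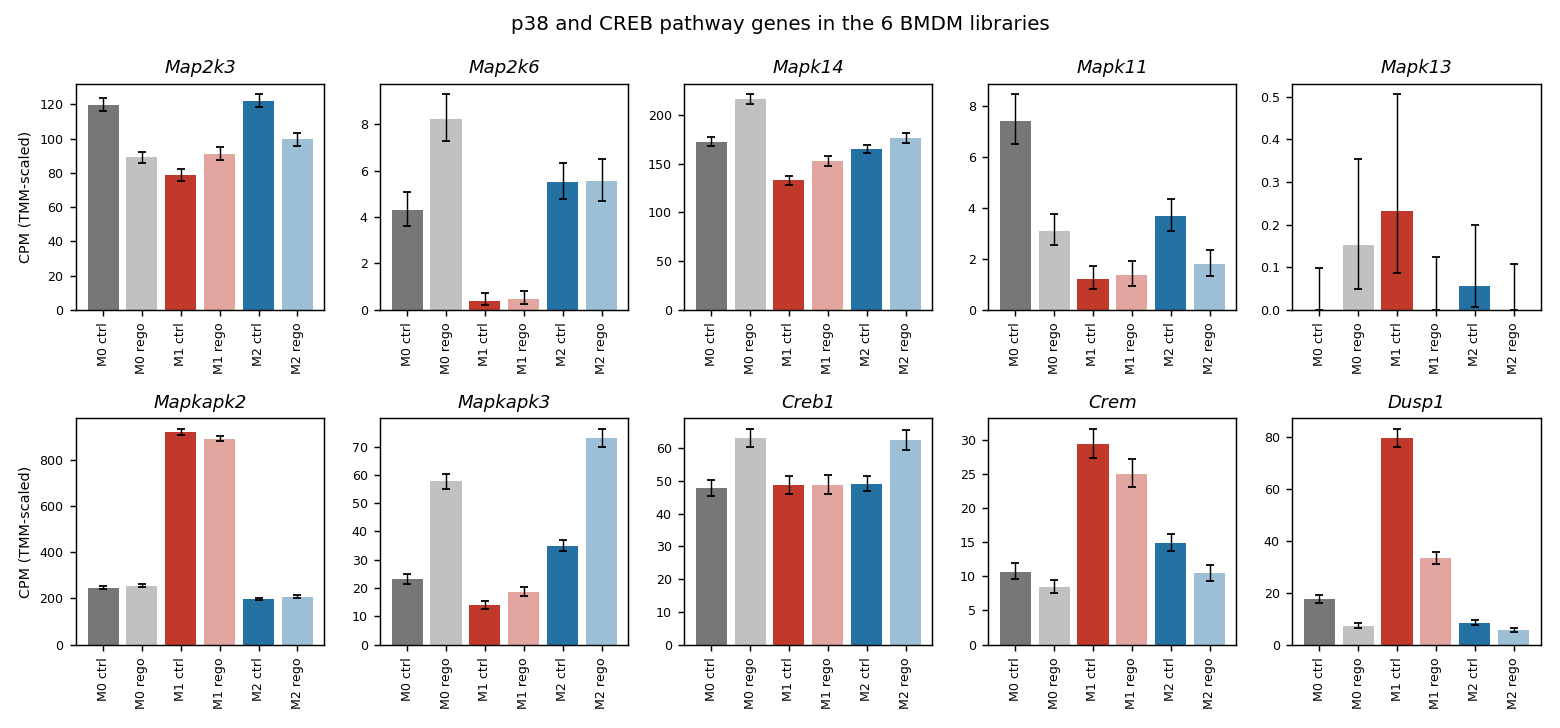
Level of each of the 10 genes in the 6 libraries in TMM-scaled CPM (y axes from 0, a scale for each gene), dark bars for control and pale bars for regorafenib, with 95% counting intervals, or the limit of 3 counts where the count is 0; each bar is 1 library. Mapkapk2, Crem and Dusp1 are highest in the M1 control (920, 29.5 and 79.6 CPM), and Map2k6 is at 0.387 and 0.456 CPM in the M1 libraries.

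The MAP kinase kinases upstream of p38 differed from each other. Map2k3 (MKK3; chr11:60932033-60952811, plus strand) had 3680 counts in the M0 control and 2938 with regorafenib, 2035 and 2201 in M1, with 4464 and 2787 in M2. The scaled level was lower with regorafenib in M0 and M2 and higher in M1. Its log2 ratios were −0.43 (−0.50 to −0.36), 0.21 (0.13 to 0.30) and −0.30 (−0.36 to −0.23) in M0, M1 and M2, none of them past 2-fold. Map2k6 (MKK6; chr11:110399122-110513641, plus strand) had 132 and 272 counts in M0, only 10 and 11 in M1, with 201 and 155 in M2, again control first. Its M0 ratio of 0.94 (0.64 to 1.25) lay just under the 2-fold line, and the M2 ratio of 0.01 (−0.30 to 0.32) showed no difference beyond counting error. With about 10 counts in each M1 library, the M1 ratio had an interval from −1.14 to 1.63 and could not be placed. Per kilobase, Map2k3 stood at 35.8 to 55.6 CPM and Map2k6 at 0.187 to 3.99.

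The 2 kinases downstream of p38 behaved unlike each other. Mapkapk2 (MK2; chr1:131053700-131097826, minus strand), the kinase that acts on mRNA-stability factors such as tristetraprolin, was the most abundant member at 69.2 to 322 CPM per kilobase. Its counts were 7550 and 8391 in M0, 23760 and 21456 in M1, with 7210 and 5802 in M2. It followed the polarization state and hardly the drug, with log2 ratios of 0.05 (0.01 to 0.10), −0.05 (−0.07 to −0.02) and 0.07 (0.02 to 0.12) for regorafenib against control in M0, M1 and M2. Mapkapk3 (MK3; chr9:107254927-107289877, minus strand), its less abundant paralog, had 712 counts in the M0 control and 1902 with regorafenib, 362 and 450 in M1, with 1272 and 2040 in M2. The regorafenib library was the higher in every state. Its log2 ratio was 1.32 in M0 (1.19 to 1.44), 1.07 in M2 (0.96 to 1.17) and 0.41 in M1 (0.21 to 0.62), where the difference between M1 and M0 was −0.90 (−1.14 to −0.67). Mapkapk3 was the only member past 2-fold upward with the drug in any state.

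In the CREB family, Creb1 (chr1:64532809-64601257, plus strand) was the steadiest member. It had 1466 and 2077 counts in M0, 1259 and 1177 in M1, with 1795 and 1746 in M2. The scaled level differed by at most 1.32-fold over the 6 libraries, since 4 libraries were nearly level and those with regorafenib in M0 and M2 lay above them. The log2 ratio was 0.40 (0.30 to 0.50) in M0, 0.00 (−0.11 to 0.12) in M1 and 0.34 (0.25 to 0.44) in M2. Crem (chr18:3266356-3337488, minus strand) had 329 and 279 counts in M0, 761 and 605 in M1, with 546 and 293 in M2. It was lower with regorafenib in all 3 states, by less than 2-fold, with log2 ratios of −0.34 (−0.58 to −0.11), −0.23 (−0.39 to −0.07) and −0.51 (−0.72 to −0.31). Exons of Crem overlap the antisense gene Gm6225, 3.83% of its 100-base words also occur in other genes, and a count per gene cannot separate its activating and repressing isoforms.

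The phosphatase Dusp1 (chr17:26505590-26508519, minus strand), whose promoter is shown above, had 534 counts in the M0 control and 236 with regorafenib, 2057 and 807 in M1, with 309 and 157 in M2. Each regorafenib library was below its control, and the M1 libraries were the 2 highest of the 6. The log2 ratio was −1.28 in M0 (−1.51 to −1.06), −1.25 in M1 (−1.37 to −1.13) and −0.59 in M2 (−0.88 to −0.31). The M0 and M1 ratios differed by 0.03 (−0.22 to 0.28), whereas M2 lay above M0 by 0.69 (0.33 to 1.04). In CPM the order was M1 control, M1 regorafenib, M0 control, M2 control, M0 regorafenib and M2 regorafenib, at 79.6, 33.5, 17.4, 8.46, 7.16 and 5.61. The counting intervals of the 2 neighbours M2 control and M0 regorafenib overlapped, as did those of M0 regorafenib and M2 regorafenib.

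**Figure D3:**
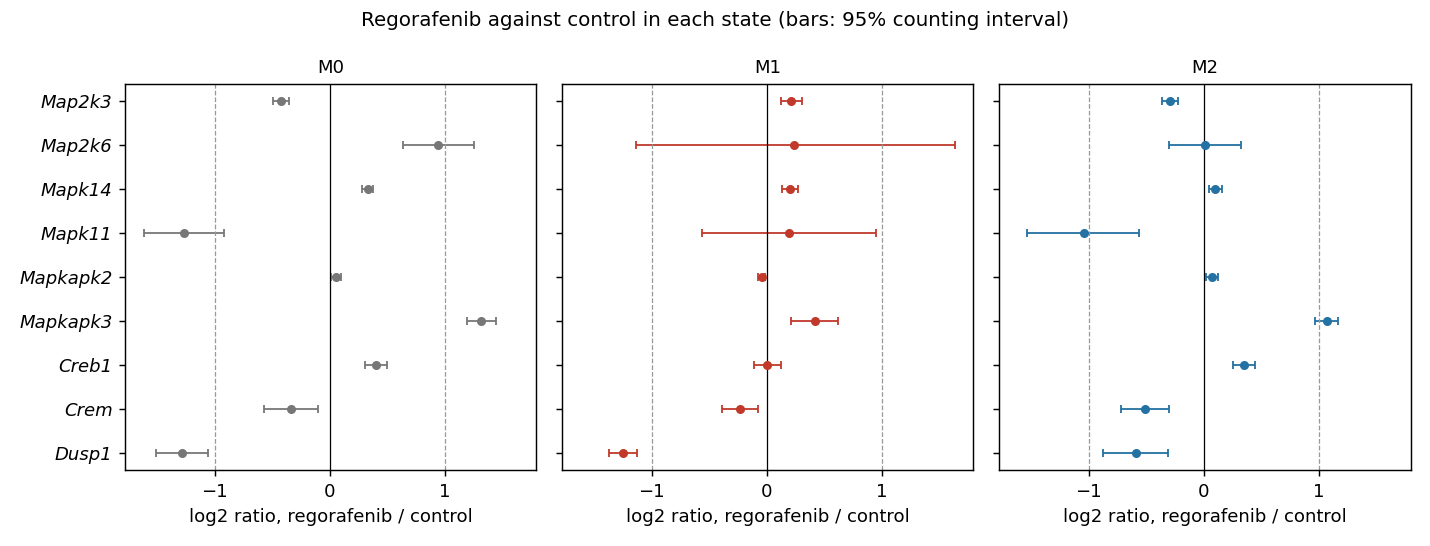
Log2 ratio of regorafenib to control (x axis) for 9 genes (y axis) in M0, M1 and M2, with 95% counting intervals of 1 library against 1; dashed lines mark 2-fold. Dusp1 lies at −1.28 in M0 and −1.25 in M1, Mapkapk3 above 1 in M0 and M2, and Mapk11 below −1 in M0 and M2.

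Across the 9 members that could be compared, 3 were past 2-fold with regorafenib in M0, where 20.4% of 13964 genes were: Mapkapk3 was higher, and Mapk11 and Dusp1 were lower. In M1, Dusp1 alone was past 2-fold, against 5.22% of all genes. In M2, Mapkapk3 was higher and Mapk11 lower, against 11.2% of all genes. Mapk11 fell short of 2-fold there under total-count scaling (−0.96) and with 1 CPM added to both values (−0.74). The members' median ratio was 0.05 in M0, 0.19 in M1 and 0.01 in M2, and that of all genes was 0.00, −0.02 and −0.03. With 9 members, these counts differ from the background share by about 1 gene.

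A fit over all 6 libraries, with state as a block, asked which drug difference the 3 states shared. It is the only test over libraries that the design gave for the drug, and its spread, with 2 residual degrees of freedom, is how far the response differed between states. By edgeR's quasi-likelihood test with Benjamini-Hochberg adjustment, 0 of 14110 genes were called (0% of those tested), with 1637 at an unadjusted p under 0.05 and 301 called by DESeq2 in the same model. Of the members, 0 were called and 2 had an unadjusted p under 0.05. These were Dusp1, with a log2 change of −1.04 (SE 0.200, adjusted p = 0.302), and Mapkapk3, with 0.95 (SE 0.209, adjusted p = 0.315). DESeq2 called both, at adjusted p = 0.00405 for Dusp1 and 0.0158 for Mapkapk3, as did edgeR without the filter on low counts (0.0212 and 0.0308). Without the M1 control or the M1 regorafenib library, edgeR called Mapkapk3 at a log2 change of 1.21 in each case (adjusted p = 0.0301 and 0.0289). Without any other library it called neither gene.

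More members were past 2-fold between M1 and M0 than between regorafenib and control, as was also true of all genes. Compared with the M0 control, the M1 control was higher in Mapkapk2, Crem and Dusp1, by log2 ratios of 1.90 (1.87 to 1.94), 1.46 (1.27 to 1.65) and 2.20 (2.06 to 2.34). Map2k6 and Mapk11 were lower, by −3.47 (−4.57 to −2.55) and −2.63 (−3.22 to −2.08). With 1 CPM added to both values, the Map2k6 ratio, which rests on 10 counts in the M1 control, was −1.93 in control and −2.67 in regorafenib libraries. These 5 of 9 members past 2-fold compare with 37.1% of all genes. Between the regorafenib libraries 6 of 9 were past 2-fold, against 37.9% of all genes: the same 5 genes and Mapkapk3 at −1.63 (−1.78 to −1.48). There the ratio was 1.81 for Mapkapk2, 1.57 for Crem and 2.23 for Dusp1, −4.18 for Map2k6 and −1.18 for Mapk11, which fell short of 2-fold with 1 CPM added (−0.79). These comparisons share their libraries with the drug comparisons above, and those of M1 and of M2 share the M0 library of the same treatment.

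In the fit over all 6 libraries, 36.7% of genes were called between M1 and M0 (2609 higher and 2565 lower), and 6 of 9 members were among them. Mapkapk2 rose by a log2 change of 1.91 (SE 0.174, adjusted p = 0.00116), Dusp1 by 2.27 (SE 0.249, adjusted p = 0.00202) and Crem by 1.57 (SE 0.205, adjusted p = 0.00321), by edgeR's quasi-likelihood test. Map2k6 fell by 3.78 (SE 0.398, adjusted p = 0.0018), Mapk11 by 1.83 (SE 0.435, adjusted p = 0.0225) and Mapkapk3 by 1.11 (SE 0.257, adjusted p = 0.0205). Leaving out the M0 control or the M1 control ended the call for Mapk11 (log2 change −1.44 and −1.17, adjusted p = 0.0755 and 0.0548). For Mapkapk3, leaving out the M0 regorafenib library ended it (−0.83, adjusted p = 0.0649). Scaling by total counts moved the median of all genes between M1 and M0 by −0.44 in control and −0.41 in regorafenib libraries. It cut the share of higher genes among those past 2-fold from 46.8% to 30.3% and from 43.1% to 27.7%. The 5 members past 2-fold in control libraries kept their side of the line under it, at 1.46 for Mapkapk2, 1.02 for Crem and 1.75 for Dusp1. Mapkapk3 and Map2k3 then passed it as well, at −1.17 and −1.05. With it, Creb1 turned from 0.03 to −0.41 between the M1 and M0 controls.

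M2 differed less from M0. Between the controls, Mapk11 and Dusp1 were the only members past 2-fold (12.3% of all genes were), at −1.02 (−1.34 to −0.70) and −1.04 (−1.25 to −0.83), so both lay at the threshold, and with 1 CPM added neither passed it (−0.85 and −0.96). Between the regorafenib libraries 0 of 9 members were past 2-fold, against 9.59% of all genes, and Dusp1 stood at −0.35 (−0.65 to −0.05). Mapkapk3 was higher in M2 in both, at 0.59 in control and 0.34 in regorafenib libraries. The edgeR fit called 0 of 9 members between M2 and M0 (1 at an unadjusted p under 0.05, and 0 by DESeq2), where it called 28 genes (0.198% of those tested) and DESeq2 called 416. Of the members, Dusp1 came nearest, with a log2 change of −0.69 (SE 0.246, unadjusted p = 0.0329, adjusted p = 0.468) by edgeR's quasi-likelihood test.

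**Figure D4:**
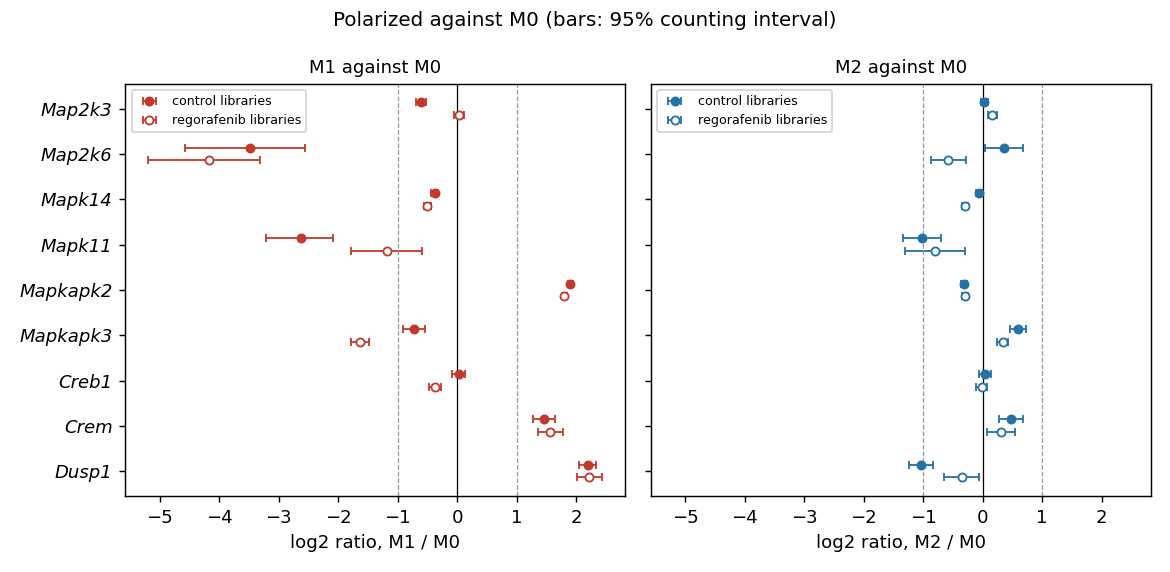
Log2 ratio of M1 to M0 (left) and M2 to M0 (right) for 9 genes, filled points for control and open points for regorafenib libraries, with 95% counting intervals; dashed lines mark 2-fold. Mapkapk2, Crem and Dusp1 lie above 1 and Map2k6 and Mapk11 below −1 in M1 with and without the drug, while no M2 point lies beyond −1.04.

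The other genes of the pathway were taken from lists of general knowledge, to be read against the 20.4%, 5.22% and 11.2% of all genes past 2-fold with regorafenib in M0, M1 and M2. Of the 11 other MAPK phosphatases, which inactivate p38, ERK or JNK, 5 were past 2-fold lower with regorafenib in M0 and 0 higher, with a median log2 ratio of −0.44. In M1 it was 0 of 11 in either direction (median −0.11), and in M2 it was 2 lower and 1 higher (median −0.20). Dusp4 had 3571 and 998 counts in M0, 5793 and 4561 in M1, with 9482 and 3738 in M2, control first, with log2 ratios of −1.94, −0.24 and −0.96. Dusp6, the ERK-specific phosphatase, had 1913 and 815 counts in M0, 2261 and 1360 in M1, with 1155 and 467 in M2 (−1.33, −0.63 and −0.92). These 2 genes, like Dusp1, were lower with the drug in every state. Dusp16 had 561 and 281 counts in M0, 3771 and 3364 in M1, with 642 and 236 in M2, and so was past 2-fold in M0 and M2 (−1.10 and −1.06). Between M1 and M0, edgeR's fit called 8 of the 11 higher and 1 lower, where it called 2609 of all 14110 genes higher and 2565 lower.

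Upstream, the 18 other kinases and adaptors that feed p38 were nearly level, with medians of 0.13, −0.01 and 0.05 in M0, M1 and M2 and at most 1 gene past 2-fold in each direction. Map3k20 (ZAK, the kinase of the ribotoxic stress response) was lower in M0 and M2, at 2440 against 945 and 2587 against 971 counts (−1.47 and −1.03), and level in M1 (552 against 517). Gadd45a, a stress-induced activator of MEKK4, a kinase upstream of p38, was higher with regorafenib in every state, at 104 against 412 counts in M0, 262 against 517 in M1 and 127 against 161 in M2. Its log2 ratios were 1.88, 1.08 and 0.73. Of 16 tested genes for the other p38 isoform and p38 or MK2 substrates, Zfp36l1, an mRNA-decay factor, was the one past 2-fold, at 324 against 1267 counts in M0 and 980 against 1523 in M2 (1.87 and 1.02), and at −0.33 in M1. The 10 tested ERK and JNK module kinases had 0 past 2-fold with regorafenib in any state.

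Of the 24 other CREB family genes, coactivators and regulators, 1 was past 2-fold higher and 1 lower in M0, 0 in M1, and 1 higher in M2. The lower one was Creb5, with 827 against 363 counts in M0, 3182 against 2611 in M1 and 800 against 385 in M2 (−1.29, −0.19 and −0.67). Pde4b, a phosphodiesterase that degrades cAMP and is itself a CREB target, had 176 against 445 counts in M0 and 76 against 189 in M2 (1.24 and 1.70), and 5438 against 5074 in M1 (0.00).

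CREB target genes differed in both directions. Of 16 tested in M0, 3 were higher and 3 lower past 2-fold with regorafenib, in M1 it was 0 and 3 of 19, and in M2 it was 4 and 3 of 18. The list median was −0.30, −0.16 and −0.09. Fos, the immediate early gene, had 2268 against 746 counts in M0, 913 against 518 in M1 and 2461 against 1031 in M2, and was lower with the drug in all 3 states (−1.71, −0.72 and −0.87). Klf4, a transcription factor of M2 cells, had 1677 against 1074, 325 against 187 and 6702 against 2362 counts (−0.74, −0.70 and −1.12).

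The mRNAs that p38 and MK2 are known to stabilize, a list that shares Il10 and Ier3 with the CREB targets, were higher in M1. In the M1 against M0 fit, edgeR called 14 of 14 higher, where 2609 of all 14110 genes were called higher, with a median log2 change of 8.30, beside −0.01 over all genes tested. Genes near the floor outside M1, such as Il6 (4 to 12 counts there, 37404 and 39074 in M1), passed the filter through M1. For such genes a call of higher in M1 was close to given, and the size of the change rests on few M0 counts. With regorafenib, 7 of 13 tested were past 2-fold lower and 1 higher in M0 (median −1.72), 1 lower and 1 higher of 14 in M1 (median 0.17), and 4 lower and 0 higher of 13 in M2 (median −0.20). Ccl3, a chemokine, had 2769 against 727 counts in M0, 92724 against 136876 in M1 and 1717 against 434 in M2, so the drug library was lower in M0 and M2 and higher in M1 (−2.03, 0.66 and −1.60). Ptgs2 (COX-2) had 214 against 69 counts in M0, 302844 against 318861 in M1 and 142 against 95 in M2 (−1.74, 0.17 and −0.20). Plaur, the urokinase receptor, had 3022 against 983, 4352 against 3903 and 3350 against 1716 counts (−1.72, −0.06 and −0.58).

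**Figure D5:**
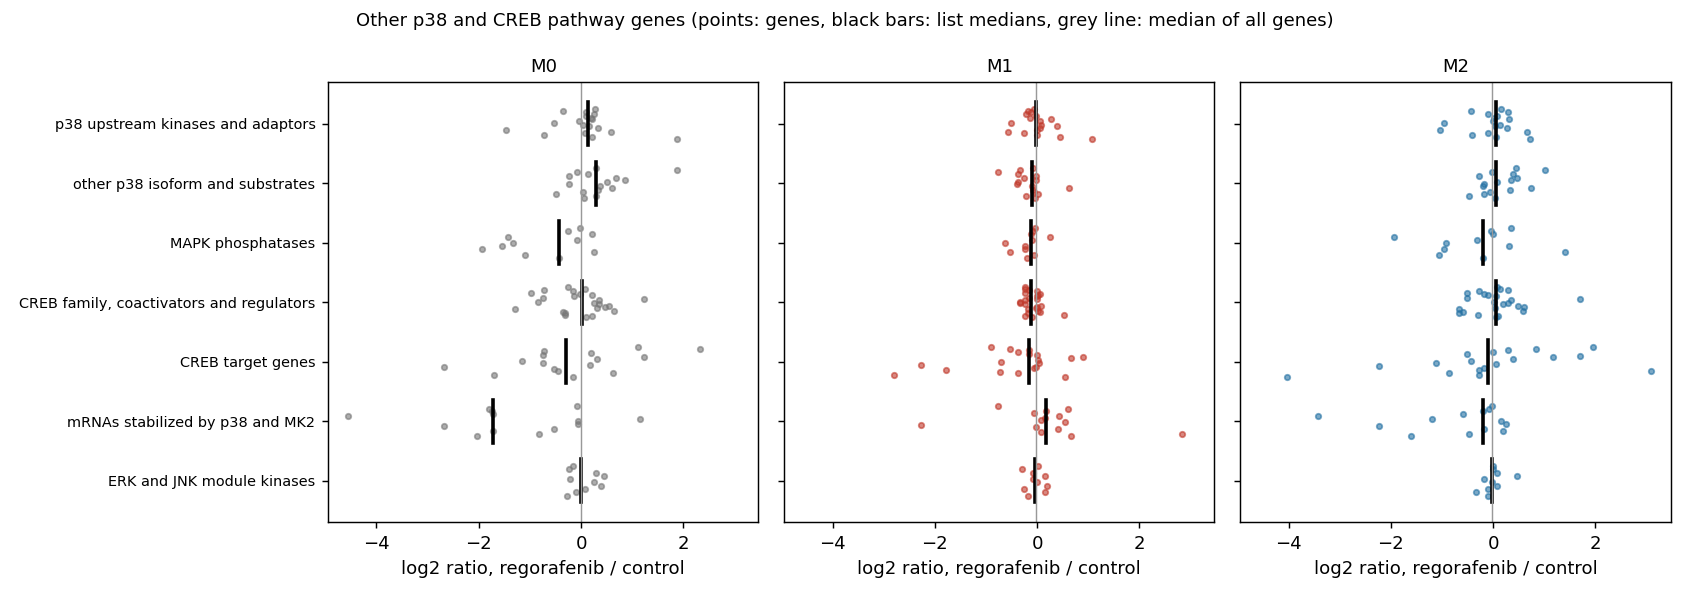
Log2 ratio of regorafenib to control (x axis) for the genes of 7 pathway lists (y axis) in M0, M1 and M2, 1 point per gene that reached 10 counts in the higher library; black bars are list medians and the grey line the median of all genes. The list of mRNAs stabilized by p38 and MK2 has a median of −1.72 in M0 and 0.17 in M1, and the ERK and JNK module kinases lie around 0 in all states.

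Over the 6 libraries, the members with the widest range, among the 9 that reached 100 counts in some library (all but Mapk13), were Map2k6, Dusp1 and Mapk11, at 21.3-fold, 14.2-fold and 6.19-fold from the highest to the lowest CPM. Among the 11313 genes that reached 100 counts in some library, those closest to Map2k6 after centring log2 CPM were Ltc4s, Nynrin and Plxnc1, with root mean square differences of 0.182, 0.186 and 0.217. Ltc4s had 205, 580, 16, 16, 321 and 283 counts in the order M0, M1 and M2, control first, so like Map2k6 it was nearly absent from M1 and highest in M0 with regorafenib. Dusp1 was most like Slc28a2, Gm11110 and Rnf213 (0.253, 0.260 and 0.292). Slc28a2 had 486, 178, 1638, 763, 404 and 146 counts, lower with the drug in each state and highest in the M1 control. Mapk11 was most like M1ap, Nhsl1 and Hcn2 (0.139, 0.161 and 0.197), and M1ap had 218, 120, 28, 29, 124 and 46 counts. These are likenesses over 6 libraries that share the same states.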

How the data were processed

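RNA-seq of mouse BMDMs gave 6 libraries, 1 for each combination of state (M0, M1, M2) and treatment (control, regorafenib), grouped by their labels. The authors deposited raw read counts per gene, made from TruSeq Stranded mRNA libraries with paired reads of 100 bases. Per the study's methods and the labels, adaptors were removed with cutadapt 2.4, and STAR 2.7.2a mapped reads to GRCm38 and counted them on Gencode M19. The strand setting behind the counts is not given in the sources used here. Of the 54446 gene IDs, 37 found no name in Gencode M21.

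From these counts, TMM factors (0.820 to 1.12) were computed over all libraries with edgeR 4.0.16 in R 4.3.3. Log2 ratios of single libraries were taken with a count of 0 replaced by 0.5, and their 95% intervals are conditional exact binomial intervals. They cover counting error only, since reads without molecular identifiers are not independent molecules. Intervals for a difference of ratios use a normal approximation. The additive fit (treatment and state) used edgeR's quasi-likelihood test on genes kept by filterByExpr, with Benjamini-Hochberg adjustment at 0.05. Each SE given with a fitted log2 change was derived from that test, as the absolute change divided by the square root of its F statistic. The scripts were tested on simulated data. Ratios were computed with numpy 2.4.6, pandas 2.3.3 and scipy 1.17.1 in Python 3.11.15, and figures drawn with matplotlib 3.10.9. The study's no-replicate NOISeq mode simulates replicates and was not used.

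The labels do not say that libraries came from separate cultures, so p-values measure only the spread between these libraries. The members and gene lists were chosen with earlier results of these data known. All members are described. From each other list, up to 4 genes could be named, those with the largest absolute log2 ratio of regorafenib to control in M2 among genes with at least 100 counts there. Likeness was sought for the 3 members of widest range among those with at least 100 counts in a library, each with the 3 closest genes. Alternatives were total-count and DESeq2 (1.42.0) scaling, no count minimum, 1 CPM added, DESeq2's Wald test, no filter, and leaving out each library. A gene of the lists is counted in its list but not reported here by name.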

Additional observations from a re-analysis of the deposited data

Results flagged for a closer look

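For 2 members the regorafenib library lay on one side of its control in M1 and on the other in M0 and M2, with counting intervals that left out 0 in all 3 states. The log2 ratio of Map2k3 was 0.21 in M1, against −0.43 in M0 and −0.30 in M2. That of Mapkapk2 was −0.047 in M1, against 0.051 in M0 and 0.071 in M2, and its M1 value was −0.0052 when scaled by total counts, within counting error of 0. Mapk11 also had opposite signs, with 0.19 in M1 against −1.26 in M0 and −1.04 in M2, but its M1 interval (−0.56 to 0.95) includes 0. Each value compares 1 library with 1, so the difference between states was not tested over replicates. By counting error alone, M1 differed from M0 by 0.64 (0.53 to 0.75) for Map2k3 and by −0.10 (−0.15 to −0.05) for Mapkapk2.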

How the results depend on the processing

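The number of members past 2-fold changed by over 1.5 times in 4 comparisons: with no count minimum it went from 1 to 2 for regorafenib in M1 and from 0 to 1 for M2 against M0 with regorafenib (the added gene is Mapk13, at under 10 counts), with total-count scaling or 1 CPM added from 2 to 1 for regorafenib in M2 (Mapk11 was lost), and with 1 CPM added from 2 to 0 for M2 against M0 in control libraries. Over all genes, no count minimum moved the number past 2-fold with regorafenib from 2851 to 6688 in M0, from 701 to 4139 in M1 and from 1551 to 5275 in M2, and 1 CPM added moved them to 1495, 154 and 565. Against M0, the numbers with no minimum were 9577 and 9484 for M1 and 5387 and 4953 for M2, control before regorafenib, in place of 5263, 5367, 1700 and 1328, and for M2 they were 780 and 451 with 1 CPM added. Total counts, DESeq2 size factors, no minimum or 1 CPM added changed the sign of a member's ratio only for Creb1 and Map2k3 against M0.

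In the additive fit, the drug called 301 genes with DESeq2 and 333 without the filter, with 2 members each, and 0 to 814 genes and 0 to 1 members when a library was left out. It was the M1 control (726 genes) and the M1 regorafenib library (814) whose removal moved it most. M2 against M0 called 416 and 408 genes under the first 2 settings and 77 to 294 without a library. The sign of a fitted change turned in 5 comparisons of 3 members when a library was left out, and none of these 5 changes had been called. The values ranged from −0.513 to 0.0616 for Map2k3 and from −0.294 to 0.0755 for Creb1 in M1 against M0, and from −0.0862 to 0.309 for Map2k3, −0.524 to 0.328 for Map2k6 and −0.0797 to 0.136 for Creb1 in M2 against M0. The cause was not tested. Of the fitted values for single members, 227 kept direction and side of the threshold, 6 gained a call, 3 lost one and 7 changed sign. No paired analysis was possible because the labels carry no replicate numbers that would link cultures, and state already stands as a block in the fit. With 1 library per condition, no ratio within a state can be set against a spread between replicate cultures, and depth limits Mapk13 everywhere and Map2k6 and Mapk11 in M1.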
